A study of Mus musculus with 6 samples.

Results

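The 45 genes described here encode ribosome biogenesis and nucleolar factors, the proteins that transcribe, modify, cut and fold ribosomal RNA and assemble it into subunits. They were chosen by gene symbol as a functional group and not by a cut on their values, though with earlier results of these data known. Each of the 45 symbols matched 1 row of a table of 52459 mouse genes. The study compared megakaryocytic-erythroid progenitors (MEPs), precursors of both platelets and erythrocytes, from Tmprss6-/- mice (KO, 3 libraries) and from wild-type mice (WT, 3 libraries). Tmprss6 is a liver protease that restrains hepcidin, and its loss leaves the animal short of iron. Each library was made from cells of 3 mice, pooled before sorting, and the sort selected for cKit and CD150 and against lineage markers, Sca, Fc gamma receptors, CD105 and CD41. The title names iron deficiency as the condition, and the contrast asks how the progenitors' transcriptome differs in it. The KO label is a germline genotype of the whole animal with no cell-type-specific driver named, and the labels give no strain, age or sex. Nothing in the labels says that same-numbered KO and WT libraries were collected together.

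A ribosome begins in the nucleolus, where RNA polymerase I copies the ribosomal RNA genes into a long precursor. Small nucleolar RNAs (snoRNAs) guide the chemical modification of that precursor, the small subunit processome folds and cuts its first part, and separate assembly factors build the large subunit. The pathway is among the costliest activities of a growing cell, is driven by the transcription factor Myc, and runs high in early erythroid progenitors before it is shut down as red cells mature. In humans, mutations of DKC1, NHP2 and NOP10 cause dyskeratosis congenita, an inherited failure of the bone marrow.

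The snoRNAs belong to classes that are told apart by short sequence boxes, and each class is bound by its own proteins among the 45. Nop56, Nop58 and the methyltransferase fibrillarin (Fbl) bind the box C/D class, which directs ribose methylation. The pseudouridine synthase dyskerin (Dkc1) with Nhp2, Nop10 and Gar1 binds the box H/ACA class, which directs the conversion of uridine to pseudouridine. Several of the 45 genes also carry snoRNAs inside their own introns, and 4 of these are shown because they display the boxes that the proteins recognise. The sequences are from the GENCODE M21 annotation of build GRCm38, as DNA and 5′ to 3′ on the strand of the host gene. Capitals mark the C box and the D box in the first 3 and the ACA box in the fourth.
Snord110, in Nop56, chr2:130275506-130275573, plus strand: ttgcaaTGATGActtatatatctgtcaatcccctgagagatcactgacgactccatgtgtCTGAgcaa
Snord11, in Nop58, chr1:59704790-59704873, plus strand: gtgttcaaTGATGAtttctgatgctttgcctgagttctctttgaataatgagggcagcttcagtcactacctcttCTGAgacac
Snord82, in Ncl, chr1:86356261-86356330, minus strand: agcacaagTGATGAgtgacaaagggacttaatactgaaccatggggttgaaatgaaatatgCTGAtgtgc
Snora75, in Ncl, chr1:86351169-86351301, minus strand: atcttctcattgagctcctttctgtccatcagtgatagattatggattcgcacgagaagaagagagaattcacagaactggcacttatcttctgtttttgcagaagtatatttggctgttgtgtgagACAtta

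Nop56 and Nop58 thus host guides of the class that their own proteins bind. In all, 7 of the 45 genes (Nop56, Nop58, Dkc1, Ncl, Wdr43, Tsr1 and Gnl3) held 21 annotated snoRNA genes on their own strand. Of the 21 snoRNA genes, 8 had 0 counts in all 6 libraries and no snoRNA gene exceeded 19 counts in any library. The mature snoRNAs were therefore hardly measured, and what follows describes the host messenger RNAs and the other protein-coding transcripts.

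Total counts were 18105463, 15031367 and 13402209 in KO replicates 1 to 3 and 22986837, 14002110 and 13666585 in WT replicates 1 to 3. Tmprss6 gave 0, 5 and 0 counts in the KO libraries and 5, 4 and 0 in the WT libraries, too few to check the genotype labels. None of the 15 progenitor markers (Kit, Gata1, Klf1 and others) was at 0 in any library, and their summed level was 9921 CPM (counts scaled to a common library size) in KO replicate 2 and 11530 to 13670 CPM in the other 5 libraries. KO replicate 2 stood apart: its summed level of 10 eosinophil, basophil and mast cell markers was 8488 CPM, where no other library exceeded 803.1 CPM and the lowest had 43.19, and all 10 were highest there. The 10 neutrophil markers summed to 3401 CPM in KO replicate 2 and 82.97 to 378.3 CPM elsewhere. The 10 macrophage markers summed to 2174 CPM there and 27.11 to 179.5 CPM elsewhere, and the 10 late erythroblast markers to 5737 and 535.8 to 938.2 CPM. The late erythroblast markers were not higher in that KO library alone. Without KO replicate 2, 8 of the 10 were above 0 (49.5% of all genes were), with a median log2 fold change, KO over WT, of 1.17. With all 6 libraries, KO lay wholly above WT for 6 of the 10, where 2.27% of all genes did. In KO replicate 3, 4 of the eosinophil, basophil and mast cell markers were at 0. The 10 lymphoid and plasma cell markers summed to 1701 CPM in KO replicate 2, 1278 CPM in KO replicate 3 and 275.4 to 569.4 CPM elsewhere. Results are therefore given with and without KO replicate 2, and in bulk RNA fewer cells of a type cannot be told apart from less RNA per cell. Cell cycle genes had log2 fold changes above 0: 13 of 13 S-phase genes, which summed to 5682, 6152 and 7190 CPM in KO and 4820, 4601 and 5702 CPM in WT, and 13 of 13 genes of G2 and mitosis, where 49.3% of all genes were above 0. None of these genes passed the test with all 6 libraries. In a fit of replicates 1 and 3, blocked by number, 1 S-phase gene and 4 genes of G2 and mitosis passed, higher in KO. So did 4 late erythroblast markers and 1 lymphoid and plasma cell marker. Passing with KO lower were 5 eosinophil, basophil and mast cell and 2 neutrophil markers. Of all 13572 genes in that fit, 0.258% passed with KO higher and 0.604% with KO lower. The libraries of that fit were picked once KO replicate 2 was known to differ. Without KO replicate 2 and with no block, eosinophil, basophil and mast cell markers had a median log2 fold change of -1.54. Neutrophil markers had -2.15, and none of either list passed. Dropping KO replicate 2 thus did not remove differences in other blood cell markers. The part of all these marker lists in the values below was not tested, apart from leaving out KO replicate 2.

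The 45 genes were well covered: the least count of any of them in any library was 226, and all 45 passed the filter on low counts. Together they took 1.05%, 0.844% and 1.19% of all counts in KO replicates 1 to 3 and 0.986%, 1.04% and 1.09% in WT replicates 1 to 3. The lowest share was that of KO replicate 2, and the other KO libraries lay within or just above the WT range. Npm1 (nucleophosmin, the most abundant nucleolar chaperone) alone supplied 14.1%, 9.44% and 7.57% of the counts of the 45 genes in KO and 14.9%, 11.9% and 6.97% in WT.

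To order the genes by level, CPM were divided by the length of the longest annotated transcript, and the mean over the 6 libraries was taken in CPM per kilobase (kb). Npm1 led with 690 CPM per kb, followed by Nop10 with 524 and Nhp2 with 328, which encode small core proteins of the H/ACA particle. The next in order were Rrp1 (large subunit assembly) with 194, Dkc1 with 190 and Nop56 with 161 CPM per kb. This order depends on the transcript used for length: with its annotated principal transcript Nop56 had 311 CPM per kb, above Rrp1 and Dkc1. At the low end stood Noc3l, counterpart of a yeast large subunit export factor, with 6.58 CPM per kb, then Polr1a, the catalytic subunit of RNA polymerase I, with 5.61, and last Utp20, a scaffold protein of the processome, with 3.71. The spread between the first and the last covered more than 2 orders of magnitude, while the 6-library ranges of neighbours in the order overlapped in 43 of 44 cases, the exception being Utp14a and Noc3l.

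**Figure D1:**
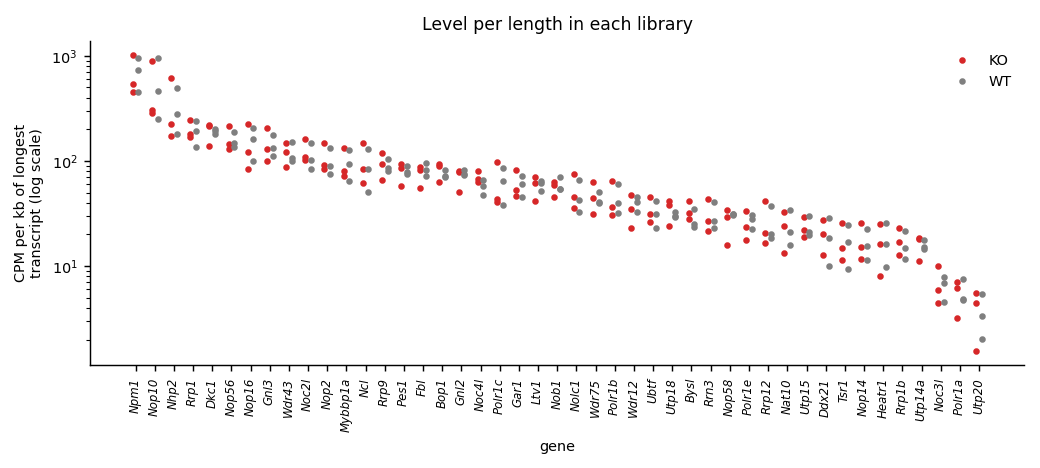
Level of each of the 45 genes in CPM per kb of the longest annotated transcript (log scale), ordered by the mean over the 6 libraries, with 1 point per library (KO in red, WT in grey). KO and WT points overlap for every gene, and the order runs from Npm1 at 690 to Utp20 at 3.71 CPM per kb.

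Messages of proteins that act in 1 particle differed in CPM per kb. Gaps between short and long transcripts also varied with the library in this measure. Length had a rank correlation of -0.65 in KO and -0.56 in WT with log2 CPM of replicate 1 minus the others. Among the H/ACA proteins Gar1 averaged 59.8 CPM per kb, well below Nop10, Nhp2 and Dkc1. Among the RNA polymerase I subunits Polr1c, which RNA polymerase III also uses, averaged 61.6 CPM per kb, Polr1b 43.8, Polr1e 25.9 and Polr1a 5.61. Polr1c, the shorter transcript, had 127 CPM to 29.5 for Polr1a in KO replicate 1, but 56.5 to 65.6 in KO replicate 3. The C/D proteins depend on the transcript used for length: with the longest transcripts Nop56, Fbl and Nop58 had 161, 79.0 and 28.7 CPM per kb, and with the annotated principal transcripts 311, 159 and 159. Within the PeBoW complex, which processes the large subunit's RNA, Pes1 and Bop1 were close at 80.3 and 78.0 CPM per kb, and Wdr12 had 37.3. The place of Wdr12 rests on its annotated length of 10012 nucleotides. Before division by length its mean was 353 CPM in KO and 394 CPM in WT, above Pes1 (231 and 238 CPM) and Bop1 (204 and 184 CPM).

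None of the 45 genes passed the test between KO and WT MEPs. With all 6 libraries, 0 of 45 passed an adjusted p of 0.05 in edgeR's quasi-likelihood test, where 0 of 13453 genes tested (0.0%) did. At an unadjusted p under 0.05 there were again 0 of the 45, against 234 of all genes (1.74%), and the adjusted p was 1.0 for all 45. The log2 fold change, KO over WT, was above 0 for 25 genes and below 0 for 20, which is 25 of 45 against 49.3% of all genes. Its median was 0.03 over the 45 genes, against -0.0048 over all genes tested, and it ran from -0.23 for Nop58 to 0.29 for Bysl. In 0 of the 45 genes did the 3 KO libraries lie wholly above or below the 3 WT libraries, where 4.03% of all genes tested were separated in this way (2.27% higher and 1.75% lower in KO).

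The size of change that the libraries leave possible is given by the 95% intervals. The standard errors of the log2 fold changes lay between 0.26 and 0.61, and the interval stayed within a 2-fold change in either direction for 32 of the 45 genes. The widest bounds were -1.57 for Nop10 and 1.38 for Nhp2. When the replicate number was added to the fit as a block, the standard errors lay between 0.13 and 0.26. All 45 intervals then stayed within a 2-fold change, with the lowest bound at -0.89 (Nop58) and the highest at 0.66 (Utp18). These narrower intervals rest on a pairing taken from the same counts and not from the labels, with a correlation of only 0.161 at number 2. Under the block 0 of 45 genes passed and 0 had an unadjusted p under 0.05, where 0 of all genes passed and 3.54% were under 0.05, and 22 genes were above 0 and 23 below (46.4% of all genes were above 0). DESeq2 called 6 of all genes (0.0446%) and, with the replicate block, 24 (0.178%), with 0 of the 45 among them.

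**Figure D2:**
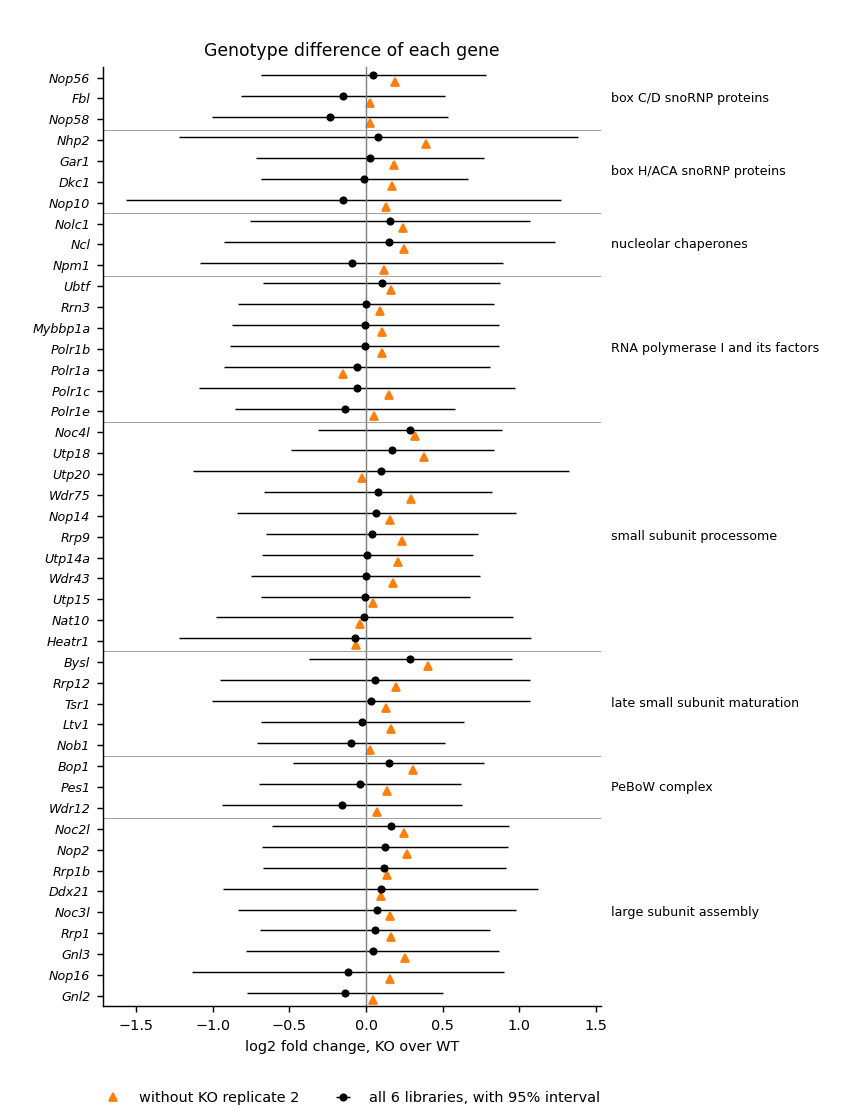
Log2 fold change, KO over WT, of each of the 45 genes by role, from all 6 libraries with its 95% interval (black circles and lines) and from 5 libraries without KO replicate 2 (orange triangles). Every black interval includes 0, and 41 of the 45 triangles lie above 0.

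All 3 genes of the C/D proteins were lowest in KO replicate 2. Nop56, a core scaffold protein, had 783, 470 and 525 CPM in KO replicates 1 to 3 and 690, 537 and 495 CPM in WT replicates 1 to 3. Nop58, its partner, had 279, 151 and 323 CPM in KO and 295, 296 and 293 CPM in WT. The WT libraries of Nop58 hardly differed, and KO replicate 2 alone lay far from the other 5. Fbl, the methyltransferase, had 198, 133 and 211 CPM in KO and 172, 232 and 197 CPM in WT, again lowest in KO replicate 2. The log2 fold changes were 0.05 ± 0.32 for Nop56, -0.23 ± 0.33 for Nop58 and -0.15 ± 0.29 for Fbl (standard error, 3 libraries per genotype). Without KO replicate 2 those of Nop58 and Fbl were each 0.03, and neither gene passed the test in either case.

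The H/ACA genes differed among themselves in which libraries were high. Nop10, a short core protein, had 998, 319 and 337 CPM in KO and 1046, 509 and 278 CPM in WT, so that both libraries numbered 1 stood far above the other 4. Nhp2, a core RNA-binding protein, had the same shape, with 639, 181 and 234 CPM in KO and 514, 293 and 190 CPM in WT. Dkc1 did not: it had 597, 390 and 609 CPM in KO and 504, 568 and 536 CPM in WT, with only KO replicate 2 low. Gar1, which binds the synthase, was highest in the libraries numbered 3, with 67.4, 59.0 and 104 CPM in KO and 57.5, 77.3 and 91.2 CPM in WT. The log2 fold change of Nop10 was -0.15 ± 0.61, the least precise of the 45.

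Of the abundant nucleolar chaperones, Npm1 had 1641, 745 and 882 CPM in KO and 1555, 1194 and 741 CPM in WT. Nucleolin (Ncl), which binds the precursor RNA as it is made, was instead lowest in replicate 1 of both genotypes, with 502, 687 and 1215 CPM in KO and 412, 686 and 1064 CPM in WT. KO was above WT at each number for Ncl, but at number 2 the log2 CPM differed by 0.0012. Nolc1, a chaperone of snoRNA particles, had the order of Ncl, with 129, 167 and 275 CPM in KO and 117, 155 and 240 CPM in WT. KO and WT overlapped for all 3 genes, and the log2 fold change of Npm1 was -0.09 ± 0.43.

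RNA polymerase I and its factors gave 2 genes above 0 and 5 below, with a median log2 fold change of -0.01. Without KO replicate 2, 6 were above 0 and 1 below, with a median of 0.10 (49.5% of all genes were above 0). Mybbp1a, a nucleolar Myb-binding protein, was the highest of the 7 per length and had 321, 355 and 591 CPM in KO and 285, 416 and 569 CPM in WT. Polr1a had 29.5, 56.7 and 65.6 CPM in KO and 44.0, 44.3 and 69.9 CPM in WT. Polr1c was instead highest in replicate 1 of both genotypes, with 127, 53.6 and 56.5 CPM in KO and 113, 85.1 and 50.3 CPM in WT. Subunits of the same enzyme thus differed in which replicate number was highest. The initiation factor Rrn3 had 76.9, 95.03 and 154 CPM in KO and 82.4, 96.5 and 146 CPM in WT, with differences of -0.10, -0.02 and 0.07 in log2 CPM at numbers 1 to 3. The upstream binding factor Ubtf ranged from 124 to 211 CPM in KO and from 107 to 194 CPM in WT, Polr1b from 123 to 255 and from 129 to 239 CPM, and Polr1e from 52.6 to 98.8 and from 67.5 to 91.0 CPM.

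The small subunit processome was represented by 11 genes, 7 of them above 0 and 4 below, with a median log2 fold change of 0.04. Without KO replicate 2, 8 were above 0 and 3 below, with a median of 0.17 (49.5% of all genes were above 0). Noc4l, whose yeast counterpart binds Nop14, was the gene with the smallest p of all 45 in the fit of 6 libraries (log2 fold change 0.29 ± 0.26, unadjusted p = 0.297). It had 131, 139 and 166 CPM in KO and 99.0, 120 and 138 CPM in WT, higher in KO at each replicate number, with the lowest KO library still under the highest WT library. Utp18, a WD-repeat processome protein, had 132, 76.0 and 122 CPM in KO and 96.5, 104 and 93.0 CPM in WT, so that KO replicates 1 and 3 lay above all WT libraries and KO replicate 2 below all of them. Wdr43, the highest of the 11 per length, had 417, 303 and 514 CPM in KO and 341, 367 and 527 CPM in WT, and its log2 fold change was -0.00 ± 0.32. The largest proteins of the machine, Heatr1 and Utp20, were lowest in the libraries numbered 1: Heatr1 had 53.9, 111 and 170 CPM in KO and 66.1, 110 and 176 CPM in WT, and Utp20 had 13.8, 39.4 and 48.4 CPM in KO and 17.9, 29.4 and 47.7 CPM in WT. The other 6 (Utp14a, Utp15, Wdr75, Rrp9, Nop14 and the acetyltransferase Nat10) had log2 fold changes between -0.01 and 0.08.

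The late steps of small subunit maturation were represented by Rrp12, Tsr1, Bysl, Nob1 and Ltv1. With all 6 libraries 3 were above 0 and 2 below, with a median log2 fold change of 0.03. Without KO replicate 2 all 5 were above 0, with a median of 0.16 (49.5% of all genes were above 0). Bysl, which is needed for the last assembly steps in the nucleus, had the largest positive value of the 45, with 124, 108 and 160 CPM in KO and 89.97, 97.1 and 134 CPM in WT (log2 fold change 0.29 ± 0.29, unadjusted p = 0.341). KO was higher at each replicate number, but the groups overlapped, and under the block the unadjusted p was 0.0791 for Bysl and 0.0667 for Noc4l. Bysl shares its place on chromosome 17 with Ccnd3 on the other strand, a cyclin gene with 173% of its counts, and Ccnd3 itself had 145, 395 and 220 CPM in KO and 130, 144 and 193 CPM in WT. The library type does not mark the strand, so reads of any shared exons could not be assigned by strand. The overlap was judged from whole gene spans, introns included, and the reads it holds were not counted. The value of Bysl is uncertain to that extent. Ltv1, an assembly factor of the small subunit, had 162, 95.8 and 140 CPM in KO and 141, 146 and 118 CPM in WT. The endonuclease Nob1 ranged from 96.7 to 134 CPM in KO and from 115 to 150 CPM in WT, Rrp12 from 71.7 to 178 and from 79.5 to 160 CPM, and Tsr1 from 38.3 to 87.7 and from 31.8 to 83.5 CPM.

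The PeBoW complex showed the low KO replicate 2 in all 3 of its genes. Pes1 had 250, 170 and 275 CPM in KO and 219, 231 and 264 CPM in WT, Bop1 231, 157 and 225 CPM in KO and 178, 173 and 202 CPM in WT, and Wdr12 479, 232 and 349 CPM in KO and 453, 403 and 325 CPM in WT. KO replicate 2 was below every WT library for each of the 3 genes. The log2 fold changes were -0.04 ± 0.28 for Pes1, 0.15 ± 0.27 for Bop1 and -0.16 ± 0.34 for Wdr12. Without KO replicate 2 all 3 were above 0, with a median of 0.14 (49.5% of all genes were above 0). Bop1 lies on chromosome 15, as does Tmprss6.

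Large subunit assembly gave 7 of 9 genes above 0, where 49.3% of all genes were. The median log2 fold change was 0.07, with values from -0.14 to 0.16. Without KO replicate 2 all 9 were above 0, with a median of 0.16 (49.5% of all genes were above 0). Rrp1, the highest of the 9 per length, had 356, 332 and 489 CPM in KO and 267, 386 and 477 CPM in WT (log2 fold change 0.06 ± 0.32). Noc2l, counterpart of another yeast export factor, had 284, 305 and 458 CPM in KO and 237, 287 and 413 CPM in WT, higher in KO at each number. The nucleolar GTPase Gnl3 (nucleostemin, known from stem cells) had 465, 224 and 293 CPM in KO and 399, 302 and 251 CPM in WT. Nop16 was likewise highest in replicate 1 of both genotypes, with 396, 147 and 212 CPM in KO and 361, 284 and 174 CPM in WT. The methyltransferase Nop2 ranged from 219 to 382 CPM in KO and from 196 to 343 CPM in WT, Rrp1b from 61.5 to 111 and from 57.3 to 106 CPM, Gnl2 from 120 to 190 and from 173 to 194 CPM, the helicase Ddx21 from 60.4 to 131 and from 47.2 to 134 CPM, and Noc3l from 17.6 to 39.5 and from 18.0 to 31.2 CPM.

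**Figure D3:**
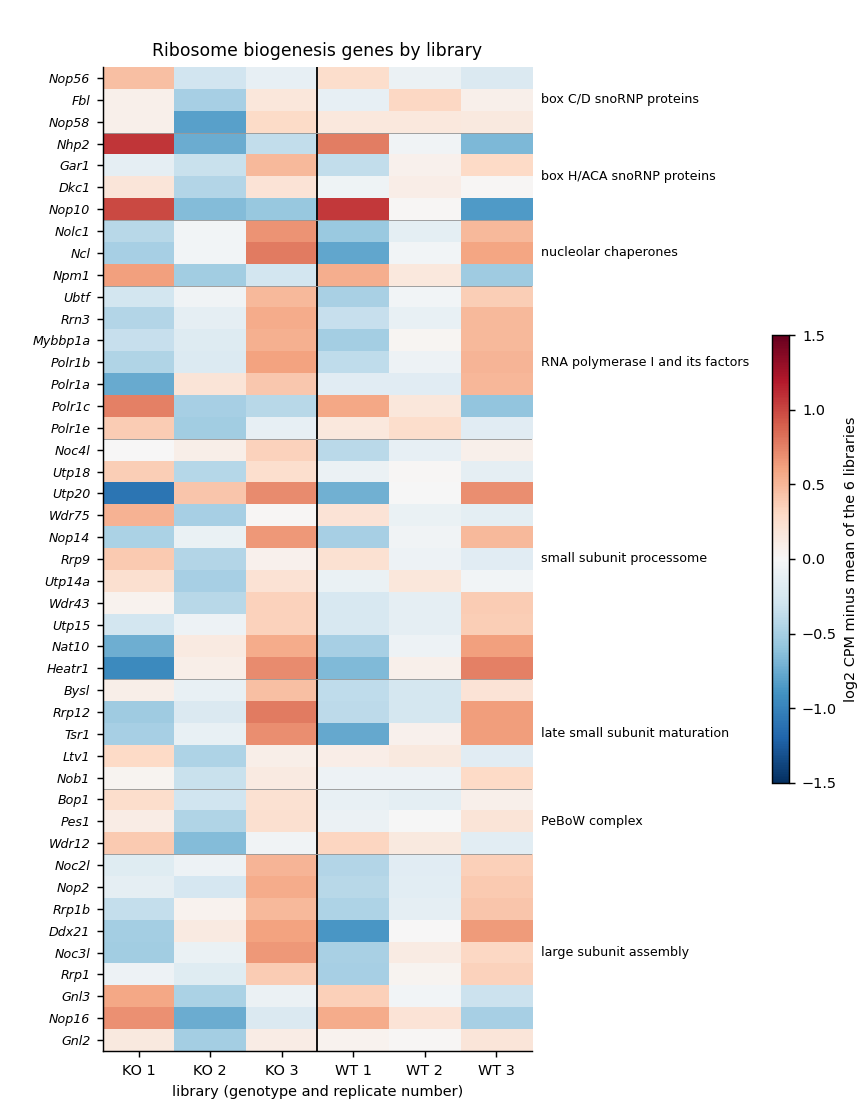
Log2 CPM of each of the 45 genes in each library minus the gene's mean over the 6 libraries, by role, with the KO libraries left of the WT libraries. The columns numbered 1 look alike across the black line, as do those numbered 3, and KO replicate 2 is blue for every C/D, H/ACA and PeBoW gene.

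Set against the WT library of the same number, the 45 genes went in opposite directions in different pairs. At number 1, 34 of the 45 were higher in KO (48.2% of all genes tested were), with a median difference of 0.18 in log2 CPM. At number 3, 37 were higher in KO (48.9% of all genes), with a median of 0.15. At number 2, 13 were higher and 32 lower (49.9% of all genes were higher), with a median of -0.23. Of the 45 genes, 30 (66.7%) were higher in KO at both numbers 1 and 3, where 28.0% of all genes tested were, and 24 of these 30 were lower in KO at number 2. Only Ncl, Nolc1, Noc2l, Rrp1b, Bysl and Noc4l were higher in KO at all 3 numbers, 6 of 45 against 11.5% of all genes tested, and none was lower at all 3, against 13.3%.

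The values of the second pair are given by role, and differences between roles were not tested. All 3 C/D and all 4 H/ACA genes were lower in KO replicate 2 than in WT replicate 2, with median differences of -0.80 and -0.61 in log2 CPM, as were all 3 PeBoW genes with a median of -0.44. Of the 11 processome genes 5 were higher and 6 lower there, with a median of -0.05, but of 39 further processome and small subunit factors outside the 45 genes 6 were higher and 33 lower, with a median of -0.32. KO replicate 2 had the highest summed markers of other blood cells, and its summed progenitor markers were the lowest of the 6. Lymphoid and plasma cell markers were also high in KO replicate 3, at 1278 CPM.

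The direction over the 45 genes depended on single libraries. Without KO replicate 2, 41 of the 45 had a log2 fold change above 0 (49.5% of all genes did) and the median was 0.16. Without KO replicate 3 12 did (50.9% of all genes) and the median was -0.18, and without WT replicate 1 it was 14 (52.9%) with a median of -0.10. In these 3 fits 0 of all genes (0.0%) and 0 of the 45 passed the test. A direction common to the group was therefore not established by these libraries.

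When the block fit was restricted to the pairs numbered 1 and 3, the standard errors fell further and the genes with small p changed. In that fit 117 of 13572 genes passed (0.862%), 35 of them higher in KO (0.258%) and 82 lower (0.604%), and 0 of the 45 did. At an unadjusted p under 0.05 there were 9 of the 45 (20.0%), against 13.2% of all genes tested. They were Utp18, Bysl, Nhp2, Noc4l, Ncl, Bop1, Dkc1 and Gnl3, which were higher in KO, and Polr1a, which was lower. The largest was Utp18, with a log2 fold change of 0.42 ± 0.11 and an adjusted p of 0.105, the smallest adjusted p of any of the 45 in any fit run. Over the 45 genes 38 were above 0 there (48.5% of all genes were) and the median was 0.15. The fit keeps 1 residual degree of freedom per gene, to which 14.5 estimated across genes are added, and these libraries were selected after KO replicate 2 had been seen to stand apart.

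The genes also varied between replicate numbers. For each gene the log2 CPM of KO and WT were averaged at each number, and the range over the 3 numbers was taken. Its median was 0.74 over the 45 genes and 0.89 over all genes tested. The range was smallest for Fbl, at 0.22, and largest for Nop10, at 1.74. Replicate 1 was the highest of its genotype in both KO and WT for 10 genes (Nop56, Nhp2, Nop10, Npm1, Polr1c, Wdr75, Rrp9, Wdr12, Nop16 and Gnl3), and the lowest in both for 19, among them Ncl, Nolc1, Polr1a, Ubtf, Utp20, Heatr1, Nat10 and Ddx21.

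The genes highest and lowest in replicate 1 differed in transcript length. The longest transcripts of the 45 ran from 1042 to 10012 nucleotides. Across the 45 genes, the rank correlation of that length with the log2 CPM of replicate 1 minus the mean of replicates 2 and 3 was -0.65 in KO and -0.56 in WT. Over all genes tested it was -0.59 and -0.56, so that the relation with length in the 45 genes was near that of the whole table. The difference itself had a Pearson correlation of 0.94 between KO and WT across the 45 genes and of 0.53 over all genes tested (Spearman 0.94 and 0.66). These are descriptions across genes, which share the same 6 libraries and are not independent replicates. The gene with the longest transcript, Wdr12, went against the trend, with replicate 1 above the others by 0.75 in KO and by 0.33 in WT. Others did too, among them the long Nop58 (0.34 in KO and 0.004 in WT) and the short Gar1 (-0.21 and -0.55).

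**Figure D4:**
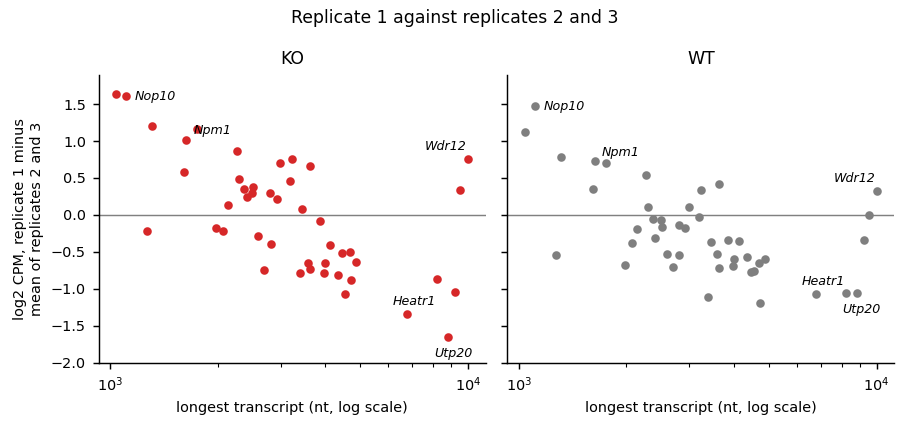
Log2 CPM of replicate 1 minus the mean of replicates 2 and 3, against the length of the longest annotated transcript in nucleotides (log scale), for the 45 genes in KO (left, red) and WT (right, grey). The short transcripts Nop10 and Npm1 lie above 0 and the long ones Heatr1 and Utp20 below 0 in both panels. Wdr12 and Nop58 (long) and Gar1 (short) are among the exceptions.

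The within-pair differences between KO and WT also ran with length, and in opposite directions. The rank correlation of length with the KO minus WT difference was -0.36 at number 1, 0.50 at number 2 and -0.46 at number 3, against -0.17, 0.34 and -0.22 over all genes tested. Of the 15 genes with the shortest transcripts (1042 to 2491 nucleotides), 1 was higher in KO at number 2, and the median difference was -0.53. Of the 15 of middle length 3 were higher there (median -0.19), and of the 15 longest 9 were (median 0.01). At number 1 the corresponding counts were 14, 14 and 6 of 15, and at number 3 they were 13, 14 and 10 of 15. Over all genes in the same length classes the median differences at number 2 were -0.27, 0.05 and 0.21. Lower values of short transcripts in KO replicate 2 than in WT replicate 2 were thus also present over the whole table, and the part it has in the low values of Nhp2, Nop10, Nop16 and Npm1 there was not tested.

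**Figure D5:**
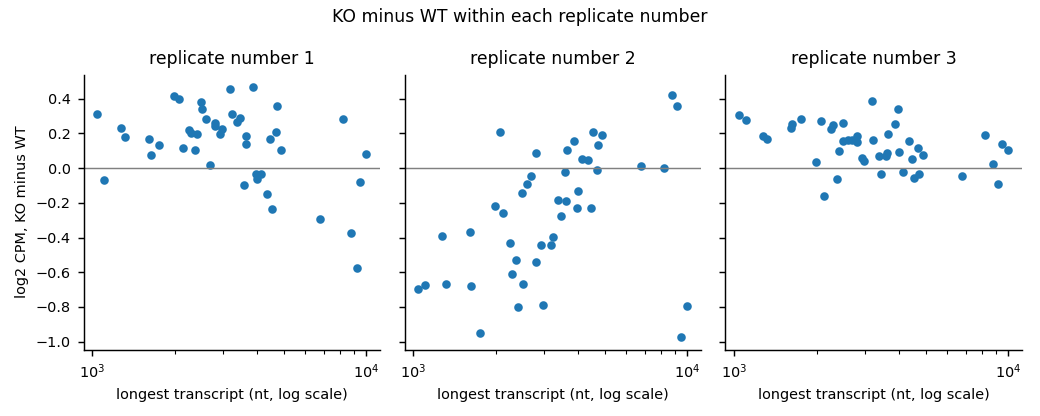
Log2 CPM in KO minus WT for the 45 genes within each replicate number, against the length of the longest annotated transcript in nucleotides (log scale). Most points lie above 0 at numbers 1 and 3 (34 and 37 of 45), whereas at number 2 most short transcripts lie below 0 and 13 of 45 are above.

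Other genes of the pathway also gave no calls in the fit of 6 libraries. Of 122 further genes listed, 120 were tested and 0 passed (0.0% of all genes did), with 53 above 0 and 67 below and a median log2 fold change of -0.02. Without KO replicate 2, 94 of the 120 were above 0 with a median of 0.14, and in the block fit of pairs 1 and 3 it was again 94, with a median of 0.12 and none called. Within pairs 83 of the 120 were higher in KO at number 1, 22 at number 2 and 89 at number 3. The further processome and small subunit factors (39 tested) had a median of -0.02, the further large subunit factors (42) of 0.00, the snoRNP assembly factors (11) of -0.03 and the RNA exosome, which trims precursor RNA (13), of 0.06. The other RNA polymerase I subunits and factors, a list that includes Polr2e, Polr2f, Polr2h, Polr2k, Polr2l and Tbp, were mostly below 0. With all 6 libraries 13 of 15 were below 0 with a median of -0.17, and without KO replicate 2 it was 8 of 15 with a median of -0.02. In the block fit of pairs 1 and 3, 11 of the 15 were above 0, with a median of 0.05.

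Myc, the transcription factor that drives this pathway, had 617, 625 and 1359 CPM in KO and 659, 780 and 1429 CPM in WT. It was lower in KO at each replicate number, and its log2 fold change of -0.14 did not pass the test. Of the 11 genes of the Myc network 4 were above 0 and 7 below. The ribosomal proteins Rpl5 and Rpl11 with Mdm2, Mdm4, Trp53 and Cdkn1a, through which a disturbed nucleolus acts on p53, were above 0 in 1 case of 6 and none passed. The non-coding snoRNA host transcripts were below 0 in 9 of the 11 tested, with a median of -0.22, where 6827 of all 13453 genes tested were below 0. Without KO replicate 2 all 11 were below 0 with a median of -0.47, and in the block fit of pairs 1 and 3 it was 10 of 11 with a median of -0.41. At number 2 alone, 6 were higher and 5 lower in KO, with a median difference of 0.08 in log2 CPM. Gas5, a host of many box C/D snoRNAs, had 396, 300 and 214 CPM in KO and 536, 440 and 250 CPM in WT, lower in KO at each number. Its log2 fold change was -0.43, with an unadjusted p of 0.0306 under the block and no call after adjustment. The 7 protein-coding snoRNA hosts among the 45 had a median log2 fold change of 0.03.

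Promoters were examined for the E-box CACGTG, the canonical binding sequence of Myc with Max, which reads the same on both strands. RefSeq windows of 300 bases (250 before to 50 after the start, build GRCm38.p6) were matched for 40 of the 45 genes, in 49 windows. CACGTG was present in 9 windows of 9 genes (18.4%), against 7.15% of 32851 windows of the same length. The windows were also richer in CG dinucleotides, with a median of 7.33 per 100 bases against 2.33 over all windows, and CACGTG itself holds a CG. The 9 genes were Ltv1, Mybbp1a, Nop2, Pes1, Rrn3, Tsr1, Utp18, Utp20 and Wdr43. The windows of Rrn3, which held the motif 2 times, and of Utp18, the gene with the smallest adjusted p in any fit, are shown 5′ to 3′ with the motif in capitals.
Rrn3, chr16:13780449-13780748, plus strand: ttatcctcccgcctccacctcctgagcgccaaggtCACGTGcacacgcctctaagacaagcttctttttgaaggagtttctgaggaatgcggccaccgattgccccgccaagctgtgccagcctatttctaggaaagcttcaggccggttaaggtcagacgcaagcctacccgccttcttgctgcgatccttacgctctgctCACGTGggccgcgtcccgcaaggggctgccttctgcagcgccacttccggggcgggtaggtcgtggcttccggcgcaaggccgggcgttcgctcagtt
Utp18, chr11:93885717-93886016, minus strand: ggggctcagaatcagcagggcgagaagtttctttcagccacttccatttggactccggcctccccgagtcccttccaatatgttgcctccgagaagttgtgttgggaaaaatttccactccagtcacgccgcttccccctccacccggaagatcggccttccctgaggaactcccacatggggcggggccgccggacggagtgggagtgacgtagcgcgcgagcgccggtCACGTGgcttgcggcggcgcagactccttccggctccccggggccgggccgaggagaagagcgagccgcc

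In Rrn3 the motifs began at -215 and -48 relative to the start, and in Utp18 at -20. A match of letters is not evidence of binding. The genes with the motif had a median log2 fold change of 0.00 (9 genes) and those without it of 0.04 (31 genes).

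The counting of some of the 45 genes was open to reads from elsewhere. Of the 45, 18 overlap an annotated gene on the opposite strand, and in 10 that partner had at least 10% of the gene's own counts. Besides Bysl these included Mybbp1a with Spns2 (52.2%), Heatr1 with Lgals8 (47.9%), Nop56 with Idh3b (27.7%), Dkc1 with Mpp1 (21.3%) and Nhp2 with Rmnd5b (19.8%). The percentages use all counts of the partner and whole gene spans, and reads within the overlaps were not counted. Npm1 and some other genes of the group have processed copies elsewhere in the genome, and the sources do not say how reads that match several places were treated. Their values are uncertain to that extent.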

How the data were processed

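Per the labels' protocols, RNA of 6 sorted MEP pools went through the SMART-Seq v4 and Nextera XT kits. These kits keep no strand information. The deposited values are read counts per Ensembl gene and library, unscaled whole numbers. FastQC 0.11.5, STAR 2.5.3a and edgeR are named in the submitters' processing notes, with builds GRCm38.p3 and GRCh38.p3. Which program counted the reads, with what strand setting and annotation, is not given in the sources used here. Coordinates are those of the deposited table.

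Groups came from the labels. Low counts were removed by filterByExpr (edgeR 4.0.16, minimum count 10, minimum total 15), which kept 13453 of 52459 genes. Libraries were scaled by TMM. KO was compared with WT by edgeR's quasi-likelihood test, two-sided, with Benjamini-Hochberg adjustment over all genes tested and a threshold of 0.05. Log2 CPM per library add a prior count of 2. Errors given with ± beside log2 fold changes are standard errors. Total counts set a floor of 3 counts at 0.138 to 0.220 CPM, which covers counting error only. Replicates are separate pools of 3 mice.

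KO and WT share the replicate numbers 1, 2 and 3. Same-numbered libraries deviated together from their group means (correlations across genes 0.532, 0.161 and 0.633, each over 0.1), so the numbers were taken to pair them. The pair at number 2 is weakly grounded. In log2 CPM, WT replicate 2 was the library closest to KO replicate 2 (correlation 0.918). Every other library was closer to WT replicate 2 (0.954 to 0.968). Differences at number 2 and counts over all 3 numbers rest on this pairing. The pairing comes from the data. Alternatives were the replicate block, DESeq2 1.42.0, limma 3.58.1 (voom, plain or quality-weighted), RLE, upper quartile and total count scaling, other filters and leaving out each library (R 4.3.3). Lengths were from GENCODE M21 and promoter windows from RefSeq. Protein sequences were not analysed here.

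The members, lists, tests and the rule for naming genes were chosen with earlier results of these data known. The rule gives full values for genes with separated groups, the 5 smallest p, the 3 largest changes in each direction and the highest level per length in each role, and up to 3 genes of smallest p in each other list, not all of which are reported. Values of other genes were added after they were seen.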

Additional observations from a re-analysis of the deposited data

How the results depend on the processing

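Across the 17 alternatives to the fit of 6 libraries, 0 of the 45 genes passed in any. The count of all genes called was 0 with edgeR and with limma voom, 117 in the block fit of pairs 1 and 3, 6 with DESeq2 and 24 with DESeq2 and the replicate block. The number of the 45 genes above 0 was 25 with all 6 libraries, 22 with the replicate block, 38 in the block fit of pairs 1 and 3, 22 to 29 under the other alternatives that kept all libraries, and 12 to 41 when 1 library was left out. The replicate block changed no call. In the block fit of pairs 1 and 3 the log2 fold changes of 17 of the 45 genes took the other sign. Among these were Nop58 0.0248, Fbl 0.15, Nop10 0.10, Npm1 0.16, Mybbp1a 0.11, Wdr43 0.12, Ltv1 0.22, Pes1 0.12 and Wdr12 0.0892. Wdr43, at -0.0013 in the fit of 6 libraries, was 0.0017 with RLE scaling, 0.0027 with a filter at 1 CPM and 0.0017 with DESeq2. With voom quality weights 12 of the 45 genes took the other sign, among them Wdr43 at 0.14, Mybbp1a at 0.11 and Nop56 at -0.0066. Leaving out each library in turn gave -0.21 to 0.20 for Nop56, -0.46 to 0.0273 for Nop58, -0.28 to 0.0253 for Fbl, -0.90 to 0.48 for Nop10, -0.52 to 0.17 for Npm1, -0.33 to 0.27 for Mybbp1a, -0.20 to 0.22 for Wdr43, -0.20 to 0.16 for Ltv1, -0.19 to 0.14 for Pes1, -0.44 to 0.0703 for Wdr12 and -0.14 to 0.27 for Rrp1. Noc4l (0.17 to 0.41), Bysl (0.11 to 0.49), Utp18 (0.01 to 0.38) and Bop1 (0.04 to 0.31) stayed above 0 in all 6 of these fits. The cause of these changes was not tested. With other scalings the members higher within pairs were 33 or 34, 9 to 16 and 37 or 38 at numbers 1, 2 and 3. With principal transcripts, chosen after seeing the data, the levels per length of Nop56, Nop58 and Fbl were 310.8, 159.2 and 159.1 CPM per kb.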

Other observations

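Among pathway genes outside the 45, those with the smallest p of their lists in edgeR's fit of 6 libraries also missed the threshold, each with an adjusted p of 1.0. Nop9, a small subunit factor, had 141, 126 and 171 CPM in KO and 103, 111 and 153 CPM in WT. Ftsj3, a methyltransferase of large subunit assembly, had 179, 176 and 259 CPM in KO and 140, 142 and 225 CPM in WT. Both were higher in KO at all 3 replicate numbers, with overlapping groups. Coil, the marker protein of Cajal bodies where snoRNA particles mature, had 32.3, 22.5 and 29.5 CPM in KO and 34.5, 34.0 and 32.9 CPM in WT, so that every KO library lay under every WT library. Of the 120 further pathway genes tested, 1 was separated with KO higher and 2 with KO lower, where 2.27% and 1.75% of all genes were.

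In the Myc network, Mycl had 1.96, 10.01 and 0.441 CPM in KO and 0.922, 0.138 and 0.356 CPM in WT (unadjusted p = 0.0315 in edgeR's test). KO replicate 2, the library with the highest summed markers of other blood cells, was far above the other 5. Mxd4, a Max partner that opposes Myc, had 25.8, 36.7 and 32.0 CPM in KO and 33.5, 41.8 and 46.5 CPM in WT, lower in KO at all 3 numbers. The snoRNA host transcript Snhg1 had 20.8, 25.9 and 6.61 CPM in KO and 37.6, 26.5 and 10.3 CPM in WT, also lower in KO at all 3 numbers and with a log2 fold change of -0.48 ± 0.61.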
